A study of Homo sapiens with 12 samples.

Results

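The miR-99/100 and miR-125 families with let-7e were followed in 12 small RNA libraries of human acute myeloid leukemia (AML) cells. The 9 mature miRNAs described are both arms of the 3 hairpins in the chromosome 19 cluster, which are hsa-miR-99b, hsa-let-7e and hsa-miR-125a, and their paralogs hsa-miR-99a-5p, hsa-miR-100-5p and hsa-miR-125b-5p. They are 9 of the 1204 miRNAs in the count table, and all 9 were among the 659 that passed the filter on low counts. The members were selected on the direction and size of their MPC1 KO effects in the same libraries, so those effects are given as a description, without p-values, and the number that passed the test is given with nothing read from it. MPC1 is part of the carrier that brings pyruvate into mitochondria.

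The cells were MV4-11 and Molm-14, leukemia lines from ATCC with an internal tandem duplication in FLT3. In each line, MPC1 KO cells carried a CRISPR/Cas9 construct (lentiCRISPRv2) with a GFP marker and a guide against MPC1, and control cells carried the Empty Vector (EV), which made 4 groups with 3 libraries apiece. Whether a knockout line came from 1 clone, and whether replicate libraries were made from separate cultures, is not given in the sources used here, so p-values measure the spread between libraries, which may be technical.

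MicroRNAs are cut from hairpin precursors, and each hairpin can give a mature strand from its 5p and its 3p arm. The seed, bases 2 to 8 of the mature strand, directs most target pairing, so miRNAs that share a seed are counted as a family. Members of the miR-99/100, let-7 and miR-125 families are encoded together in 3 paralogous clusters. Of let-7, these clusters hold only let-7e, let-7c and the MIRLET7A2 copy of let-7a. miR-125 and miR-99/100 members are known for roles in blood stem cells and leukemia. let-7 members are known to repress growth and cell cycle genes.

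The mature sequences of the 5p arms are shown because they set the families that are summed here. They are from RefSeq (GRCh38.p14), written 5′ to 3′ with the seed in capitals.
hsa-miR-99b-5p: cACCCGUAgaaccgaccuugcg
hsa-miR-99a-5p: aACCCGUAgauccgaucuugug
hsa-miR-100-5p: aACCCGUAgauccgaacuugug
hsa-miR-125a-5p: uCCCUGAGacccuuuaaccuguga
hsa-miR-125b-5p: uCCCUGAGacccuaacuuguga
hsa-let-7e-5p: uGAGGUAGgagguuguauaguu
hsa-let-7c-5p: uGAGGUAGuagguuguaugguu
hsa-let-7a-5p: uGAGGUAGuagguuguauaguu
The miR-99/100 members share 1 seed, and with positions counted from 1 at the 5′ end, hsa-miR-99a-5p differs from hsa-miR-100-5p by the single substitution U16A. From hsa-miR-99a-5p to hsa-miR-99b-5p the substitutions are A1C, U11A, U16C and U21C. hsa-miR-125a-5p (24 bases) and hsa-miR-125b-5p (22 bases) share their first 13 bases. hsa-let-7e-5p differs from hsa-let-7a-5p by G9U, just after the seed, and hsa-let-7c-5p differs from hsa-let-7a-5p by G19A.

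The 3p arms of the chromosome 19 hairpins and of the chromosome 21 hairpins are shown because each of them belongs to 1 hairpin and so reports on a single locus.
hsa-miR-99b-3p: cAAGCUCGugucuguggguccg
hsa-miR-99a-3p: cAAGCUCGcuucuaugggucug
hsa-let-7e-3p: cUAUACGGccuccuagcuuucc
hsa-let-7c-3p: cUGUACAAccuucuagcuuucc
hsa-miR-125a-3p: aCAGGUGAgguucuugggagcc
hsa-miR-125b-2-3p: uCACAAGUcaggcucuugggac
hsa-miR-99b-3p and hsa-miR-99a-3p share a seed, while hsa-let-7e-3p and hsa-miR-125a-3p share theirs with no other RefSeq mature miRNA.

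The clusters differ in length by far. In GRCh38, the chromosome 19 cluster is on the plus strand and spans 728 bases, with MIR99B at chr19:51692612-51692681, MIRLET7E at chr19:51692786-51692864 and MIR125A at chr19:51693254-51693339. All 3 hairpins lie within the protein-coding gene SPACA6, of which MIR125A overlaps an exon while MIR99B and MIRLET7E are intronic, and all 3 lie opposite to exons of SPACA6-AS1. The chromosome 21 cluster spans 51237 bases of the lncRNA gene MIR99AHG, with MIR99A at chr21:16539089-16539169 in an intron, MIRLET7C at chr21:16539828-16539911 and MIR125B2 at chr21:16590237-16590325, the last 2 overlapping annotated exons. The chromosome 11 cluster spans 52552 bases on the minus strand in introns of the lncRNA gene MIR100HG, with MIR125B1 at chr11:122099757-122099844, MIRLET7A2 at chr11:122146522-122146593 and MIR100 at chr11:122152229-122152308.

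The libraries held between 3870104 and 8683456 counts, and levels are given as CPM, each count relative to its library's total, scaled by edgeR's TMM method (factors of 0.940 to 1.08). The mature strands have 22 to 24 bases, so levels were not scaled by length. How evenly the library kit captures different sequences was not tested, and it bears on every level, share or sum set between miRNAs. The blood miRNAs hsa-miR-142-3p, hsa-miR-142-5p and hsa-miR-223-3p summed to between 26979 and 66486 CPM in every library. Of 5 miRNAs that mark other tissues, hsa-miR-124-3p (neurons) had at most 6 counts and hsa-miR-205-5p (epithelium) at most 2. The 5 summed to 622 to 725 CPM in MV4-11 EV, 516 to 597 in MV4-11 MPC1 KO, 182 to 207 in Molm-14 EV and 105 to 111 in Molm-14 MPC1 KO, mostly from hsa-miR-143-3p, so the sum was lower in MPC1 KO and in Molm-14. Its part in the results was not tested. In such bulk libraries, fewer cells with a miRNA and less of it per cell cannot be told apart.

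The first question was how the clusters compare between the control cells of both lines. The members were not chosen for this contrast, but it uses the same EV libraries as the MPC1 KO contrasts. For the chromosome 19 arms that choice can favour low MV4-11 EV and high Molm-14 EV values, the direction found here. The p-values of the members in this contrast are therefore not free of the selection. All 9 members were higher in Molm-14 EV than in MV4-11 EV, and all 9 passed the test (edgeR's quasi-likelihood test on all 12 libraries, Benjamini-Hochberg adjusted p under 0.05). The 9 include hsa-miR-125b-5p, which passed the filter on low counts only through the Molm-14 libraries. Among all 659 miRNAs tested, 33.5% were higher and 28.4% lower in this contrast, and 64.2% did not overlap between the EV libraries of the lines in either direction. The median log2 difference was 1.83 over the members and 0.06 over all 659.

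The chromosome 19 arms differed moderately. hsa-miR-99b-5p had 371, 364 and 369 CPM in the MV4-11 EV libraries and 844, 748 and 734 in Molm-14 EV. The Molm-14 libraries were all above the MV4-11 ones, with a log2 difference of 1.08 (standard error 0.09, adjusted p = 1.25e-10 by edgeR). hsa-let-7e-5p, the let-7 member of this cluster, had 89.2, 85.6 and 90.7 CPM in MV4-11 EV and 341, 282 and 323 in Molm-14 EV, a log2 difference of 1.83 (standard error 0.11, adjusted p = 2.23e-13 by edgeR). hsa-miR-125a-5p had 293, 212 and 240 CPM in MV4-11 EV and 695, 513 and 628 in Molm-14 EV, a log2 difference of 1.30 (standard error 0.12, adjusted p = 4.29e-09 by edgeR). The spread between libraries was wider for hsa-miR-125a-5p than for hsa-miR-99b-5p in both groups. The less abundant 3p arms of these hairpins were also higher in Molm-14 EV, with log2 differences of 1.54 for hsa-miR-99b-3p, 1.96 for hsa-miR-125a-3p and 3.07 for hsa-let-7e-3p (adjusted p = 1.2e-10, 4.91e-06 and 6.52e-08 by edgeR). The last value rests on 7, 4 and 2 counts in MV4-11 EV.

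The paralogs on the other chromosomes spread over a far wider range. hsa-miR-99a-5p had 4.02, 8.61 and 10.5 CPM in the MV4-11 EV libraries, from 33, 38 and 44 counts. In Molm-14 EV it had 7416, 10356 and 7208 CPM and ranked 22 of 659 by mean level. The ratio of the means was 1079 and the log2 difference 10.18 (standard error 0.33, adjusted p = 7.43e-11 by edgeR). hsa-miR-100-5p, which is encoded on chromosome 11 and differs from it by 1 base, had 42.5, 43.7 and 49.6 CPM in MV4-11 EV and 78.2, 76.3 and 68.6 in Molm-14 EV, a log2 difference of 0.72 (standard error 0.13, adjusted p = 3.57e-05 by edgeR). hsa-miR-125b-5p had 0, 0 and 1 count in MV4-11 EV and 57, 23 and 35 counts in Molm-14 EV, at least 14.4-fold higher against a floor of 3 counts per library. It passed the filter on low counts only through the Molm-14 libraries, so its call is no support for a difference.

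**Figure D1:**
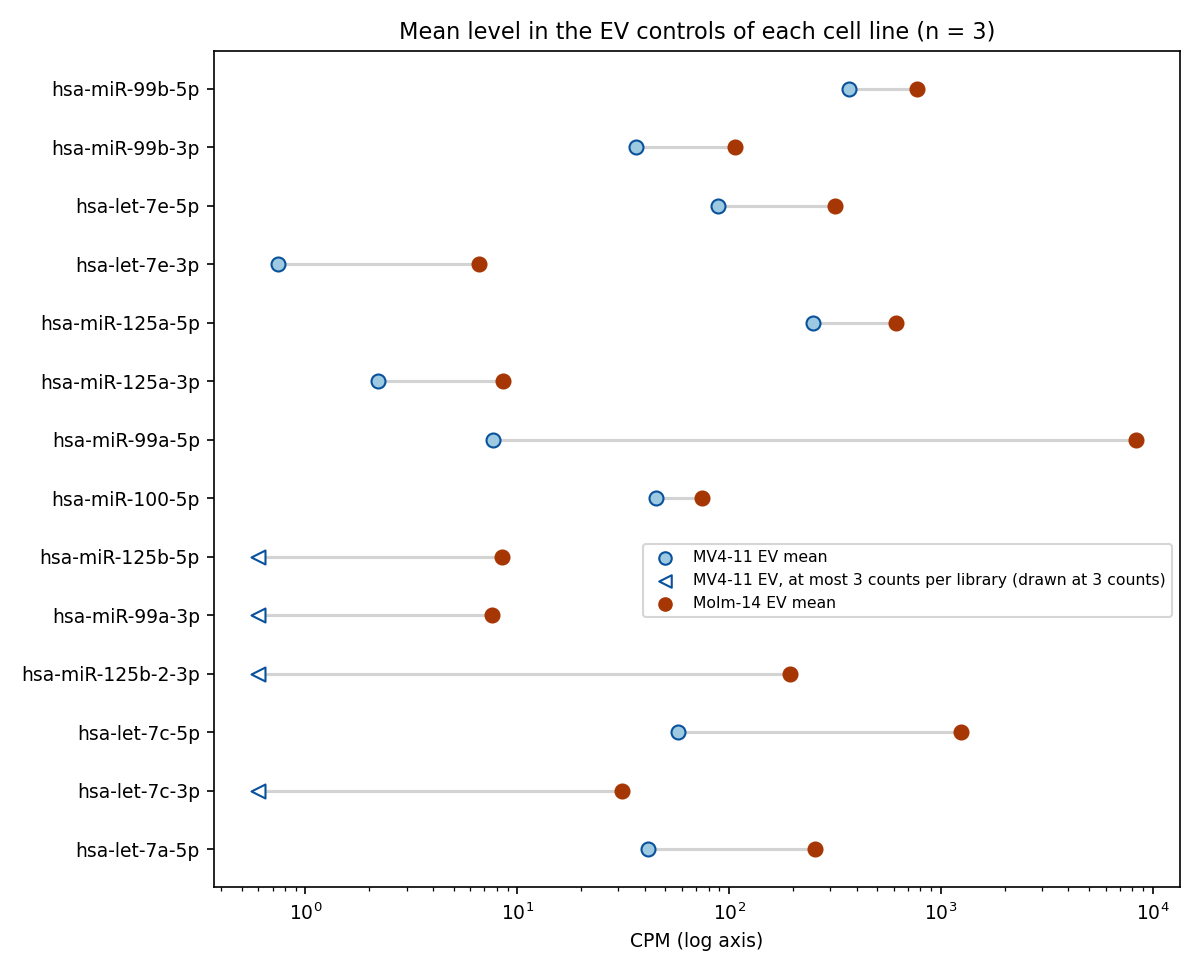
Mean level in CPM on a log axis of the 9 members and 5 cluster neighbours in MV4-11 EV (blue) and Molm-14 EV (red), 3 libraries each. The line between the points is longest for hsa-miR-99a-5p and for the other chromosome 21 arms, and triangles mark miRNAs with at most 3 counts in every MV4-11 EV library.

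The other mature arms of the chromosome 21 and 11 hairpins were taken as neighbours, a list set by the hairpins and not by their values. Of its 8 arms, hsa-miR-99a-3p, hsa-let-7c-5p, hsa-let-7c-3p, hsa-miR-125b-2-3p and hsa-let-7a-5p were measured, and hsa-miR-100-3p, hsa-miR-125b-1-3p and hsa-let-7a-2-3p were not analysed here. All 5 measured neighbours were higher in Molm-14 EV and passed the edgeR test, against 33.5% of all 659 miRNAs. hsa-let-7c-5p, encoded beside MIR99A, had a mean of 57.1 ± 3.21 CPM in MV4-11 EV (SD, n = 3) and 1241 ± 96.0 CPM in Molm-14 EV (SD, n = 3), which is 21.7-fold higher (adjusted p = 4.51e-21 by edgeR). hsa-miR-125b-2-3p had 1, 0 and 1 count in MV4-11 EV and 993, 728 and 845 counts in Molm-14 EV, at least 330-fold higher. hsa-let-7c-3p was at least 53.4-fold and hsa-miR-99a-3p at least 12.9-fold higher, with 0 counts of either in every MV4-11 EV library. These last 3 arms passed the filter only through the Molm-14 libraries, as hsa-miR-125b-5p did, so their calls are no support for a difference. hsa-let-7a-5p, which has 3 loci and so does not report on chromosome 11 alone, was 6.13-fold higher in Molm-14 EV.

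Summed over arms, the clusters changed places between the lines. The 6 chromosome 19 arms summed to a mean of 744 CPM in MV4-11 EV and 1824 CPM in Molm-14 EV. The 5 chromosome 21 arms that match a single locus summed to 64.9 CPM in MV4-11 EV and 9801 CPM in Molm-14 EV. The chromosome 21 sum was thus below the chromosome 19 sum in MV4-11 and above it in Molm-14, with no overlap of the libraries in either line.

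The second question was what happened to each member in MPC1 KO cells. The chromosome 19 arms were higher in MPC1 KO than in EV in MV4-11 and lower in Molm-14, where the hsa-let-7e-3p libraries overlapped. This is the contrast on which the members were chosen. hsa-miR-99b-5p had 371, 364 and 369 CPM in the MV4-11 EV libraries and 884, 901 and 901 in MV4-11 MPC1 KO, with a log2 fold change of 1.28 (standard error 0.09). In Molm-14 it had 844, 748 and 734 CPM in EV and 541, 502 and 524 in MPC1 KO, with a log2 fold change of -0.57 (standard error 0.09). The libraries of its 4 groups did not overlap, and their order from low to high was MV4-11 EV, Molm-14 MPC1 KO, Molm-14 EV and MV4-11 MPC1 KO.

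hsa-let-7e-5p had 89.2, 85.6 and 90.7 CPM in MV4-11 EV and 243, 215 and 260 in MV4-11 MPC1 KO, a log2 fold change of 1.43 (standard error 0.11). The Molm-14 values were 341, 282 and 323 CPM in EV and 220, 239 and 237 in MPC1 KO, a log2 fold change of -0.44 (standard error 0.10). In the MPC1 KO cells of both lines its libraries overlapped, while the EV libraries of the lines stood apart.

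hsa-miR-125a-5p had 293, 212 and 240 CPM in MV4-11 EV and 622, 619 and 620 in MV4-11 MPC1 KO, a log2 fold change of 1.32 (standard error 0.12). In Molm-14 it had 695, 513 and 628 CPM in EV and 467, 371 and 467 in MPC1 KO, a log2 fold change of -0.49 (standard error 0.12). Its MV4-11 MPC1 KO libraries lay within the range of Molm-14 EV.

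The 3p arm of MIR99B moved by nearly the same amount as its 5p arm. hsa-miR-99b-3p had 35.7, 32.8 and 40.7 CPM in MV4-11 EV and 95.4, 90.7 and 82.6 in MPC1 KO, a log2 fold change of 1.30 (standard error 0.13). The Molm-14 libraries held 116, 108 and 94.0 CPM in EV and 77.0, 75.0 and 76.2 in MPC1 KO, a log2 fold change of -0.48 (standard error 0.12). Both pairs of groups were free of overlap.

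The other two 3p arms were near the lower end of what was counted. hsa-let-7e-3p had 7, 4 and 2 counts in MV4-11 EV and 17, 14 and 12 in MPC1 KO, a log2 fold change of 1.71 (standard error 0.41). In Molm-14 there were 33, 21 and 34 counts in EV and 34, 40 and 21 in MPC1 KO, and the libraries overlapped, with a log2 fold change of -0.11 (95% interval -0.65 to 0.44). hsa-miR-125a-3p had 19, 4 and 14 counts in MV4-11 EV and 23, 27 and 25 in MPC1 KO, with a log2 fold change of 1.02 (standard error 0.32). Molm-14 libraries had 46, 32 and 36 counts in EV and 31, 38 and 23 in MPC1 KO, which gave a log2 fold change of -0.52 (standard error 0.27), and scaled to library size the MPC1 KO libraries were all below the EV ones. At such counts the standard errors were wider than those of the 5p arms.

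**Figure D2:**
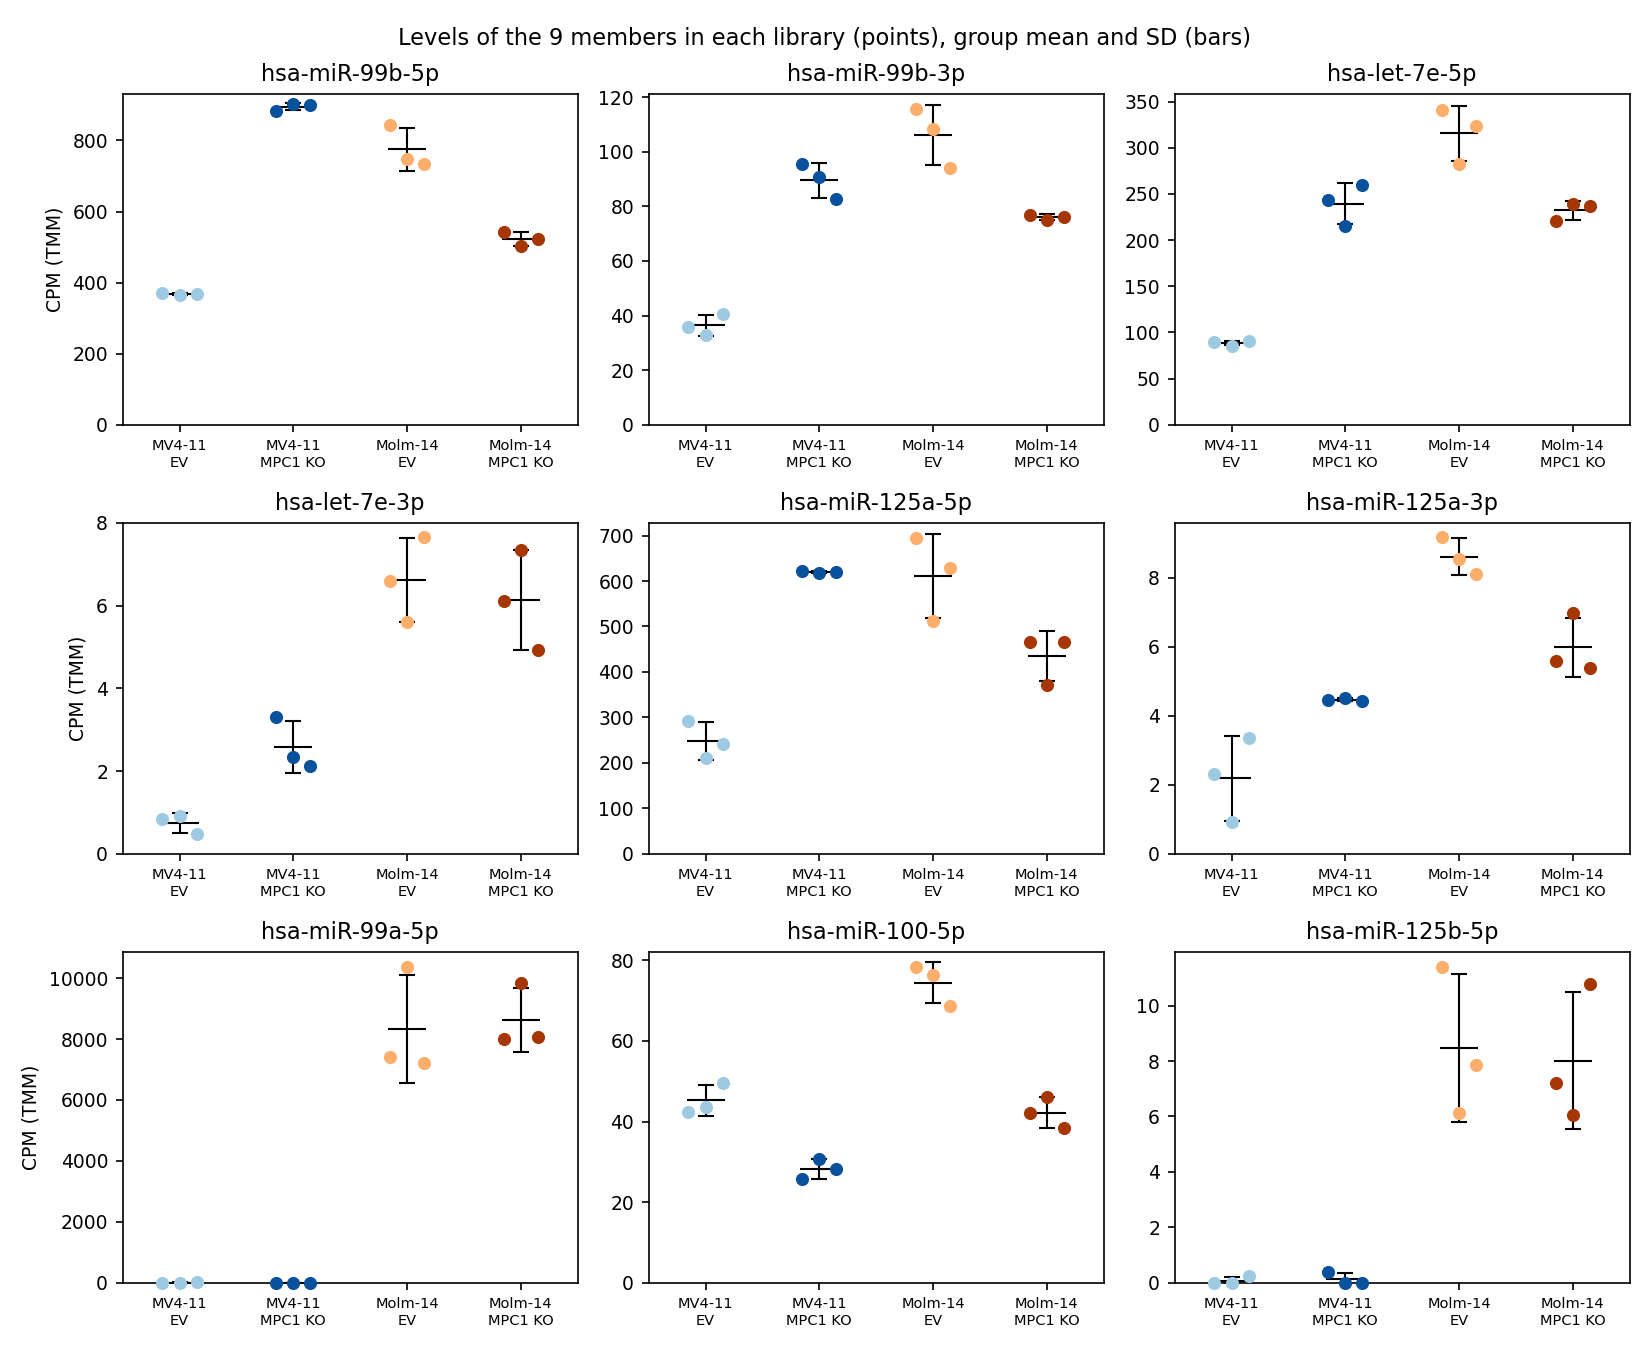
Level in CPM (vertical axis, linear from 0) of each of the 9 members in each library (points), with the group mean and SD (bars) for the 4 groups of 3 libraries. The 6 chromosome 19 arms in the first 6 panels are lowest in MV4-11 EV, hsa-miR-99a-5p and hsa-miR-125b-5p are near 0 in MV4-11, and hsa-miR-100-5p is lower in MPC1 KO in both lines.

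The 3 paralogs had patterns of their own. hsa-miR-99a-5p had 4.02, 8.61 and 10.5 CPM in MV4-11 EV and 8.35, 4.68 and 7.06 in MV4-11 MPC1 KO, and the libraries overlapped. In Molm-14 it had 7416, 10356 and 7208 CPM in EV and 7992, 9850 and 8058 in MPC1 KO, with a log2 fold change of 0.05 (95% interval -0.41 to 0.51). The groups overlapped in both lines.

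hsa-miR-100-5p was lower in MPC1 KO in both lines. It had 42.5, 43.7 and 49.6 CPM in MV4-11 EV and 25.6, 30.6 and 28.2 in MPC1 KO, a log2 fold change of -0.68 (standard error 0.14). In Molm-14 it had 78.2, 76.3 and 68.6 CPM in EV and 42.1, 46.0 and 38.5 in MPC1 KO, a log2 fold change of -0.82 (standard error 0.13). All MPC1 KO libraries were below all EV libraries of their line. The difference of its log2 fold changes between the lines was -0.14 (95% interval -0.53 to 0.25).

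The 1-base difference between hsa-miR-99a-5p and hsa-miR-100-5p bears on how the reads of Molm-14 were assigned. Per 100 counts of hsa-miR-99a-5p there were 1.06, 0.737 and 0.952 counts of hsa-miR-100-5p in Molm-14 EV and 0.526, 0.467 and 0.477 in Molm-14 MPC1 KO. In MV4-11 EV, where hsa-miR-99a-5p was low, there were 1058, 508 and 470. How much of the Molm-14 count of hsa-miR-100-5p came from reads of its abundant paralog was not tested.

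hsa-miR-125b-5p was at most 2 counts in every MV4-11 library, so no fold is given there. In Molm-14 it had 57, 23 and 35 counts in EV and 40, 33 and 46 in MPC1 KO, and the libraries overlapped (log2 fold change -0.12, 95% interval -0.76 to 0.53).

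Counted by the edgeR test, 5 members were higher and 1, hsa-miR-100-5p, was lower in MV4-11 MPC1 KO, where 1.97% of all 659 miRNAs were higher and 1.06% lower. In Molm-14 MPC1 KO 5 members were lower and 0 higher, against 4.1% lower and 2.73% higher of all miRNAs. An unadjusted p under 0.05 gave 7 members in MV4-11 and 5 in Molm-14. The share of all miRNAs at that level is not given here. Libraries did not overlap for 7 members in MV4-11 and 6 in Molm-14, against 17.5% and 27.2% of all miRNAs. For the difference of the effects between the lines, 6 members passed the test, all chromosome 19 arms, against 6.68% of all miRNAs. DESeq2 called 6 members in MV4-11, 5 in Molm-14 and 4 for the difference, where it lost hsa-let-7e-3p and hsa-miR-125a-3p. The share of all miRNAs that DESeq2 called is not given here either. Leaving out 1 library at a time, the call of the difference was lost in 6 of 12 fits for hsa-let-7e-3p and in 8 of 12 for hsa-miR-125a-3p. These counts come from the contrasts that chose the members, and nothing is read from them. The Molm-14 count dropped to 3 when replicate 1 of its EV, replicate 1 of its MPC1 KO or replicate 2 of its MPC1 KO libraries was left out, which took hsa-miR-99b-3p with hsa-miR-125a-5p or hsa-let-7e-5p over the threshold.

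The scaling of the libraries sets the balance of all calls. With TMM, 13 miRNAs were higher and 7 lower in MV4-11 MPC1 KO, and with upper-quartile scaling 10 were higher and 15 lower. Upper-quartile scaling shifted the log2 fold changes there by a median of -0.11, and those between the EV controls by -0.18. Scaling by total counts gave 20 higher and 6 lower there. In Molm-14 the split was 18 higher and 27 lower with TMM, and 30 higher and 23 lower with upper-quartile scaling. For the difference of the effects the split was 16 higher and 28 lower in Molm-14 with TMM, and 31 higher and 13 lower with upper-quartile scaling, which shifted that difference by a median of 0.18. The chromosome 19 arms kept their direction in both lines under each of the 3 other scalings, as did hsa-miR-100-5p, and all 9 members stayed higher in Molm-14 EV and past the threshold.

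The neighbours were set by hairpin and not by their values, so a test is given for them in the MPC1 KO contrasts. They are the arms left beside members chosen on these contrasts, and the list was made with earlier results known. Their tests are therefore not independent of that choice. In MV4-11, hsa-miR-99a-3p, hsa-let-7c-3p and hsa-miR-125b-2-3p had at most 1 count in every library, so only hsa-let-7c-5p and hsa-let-7a-5p could be tested there and for the difference of the effects. Neither of these passed the edgeR test in MV4-11 or for the difference, and none of the 5 neighbours passed in Molm-14. DESeq2 and limma-voom also called 0 in each. At an unadjusted p under 0.05 there were 0 in MV4-11, 2 in Molm-14 and 0 for the difference. The share of all miRNAs at that level is not given here. hsa-let-7c-5p in MV4-11 had a log2 fold change of 0.07 (95% interval -0.14 to 0.28), and hsa-let-7a-5p 0.01 (95% interval -0.31 to 0.33), and the sign of both turned with upper-quartile scaling.

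The 2 neighbours with small unadjusted p-values were both abundant chromosome 21 arms. In Molm-14, hsa-let-7c-5p had 1337, 1145 and 1243 CPM in EV and 1094, 1060 and 1104 in MPC1 KO, a log2 change of -0.19 (standard error 0.09, adjusted p = 0.238 by edgeR). hsa-miR-125b-2-3p had 198, 194 and 190 CPM in EV and 167, 158 and 167 in MPC1 KO, a log2 change of -0.24 (standard error 0.11, adjusted p = 0.234 by edgeR). Their MPC1 KO libraries were all below their EV libraries, and neither passed the test. Of all miRNAs, 27.2% had groups without overlap in Molm-14, counted in either direction.

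**Figure D3:**
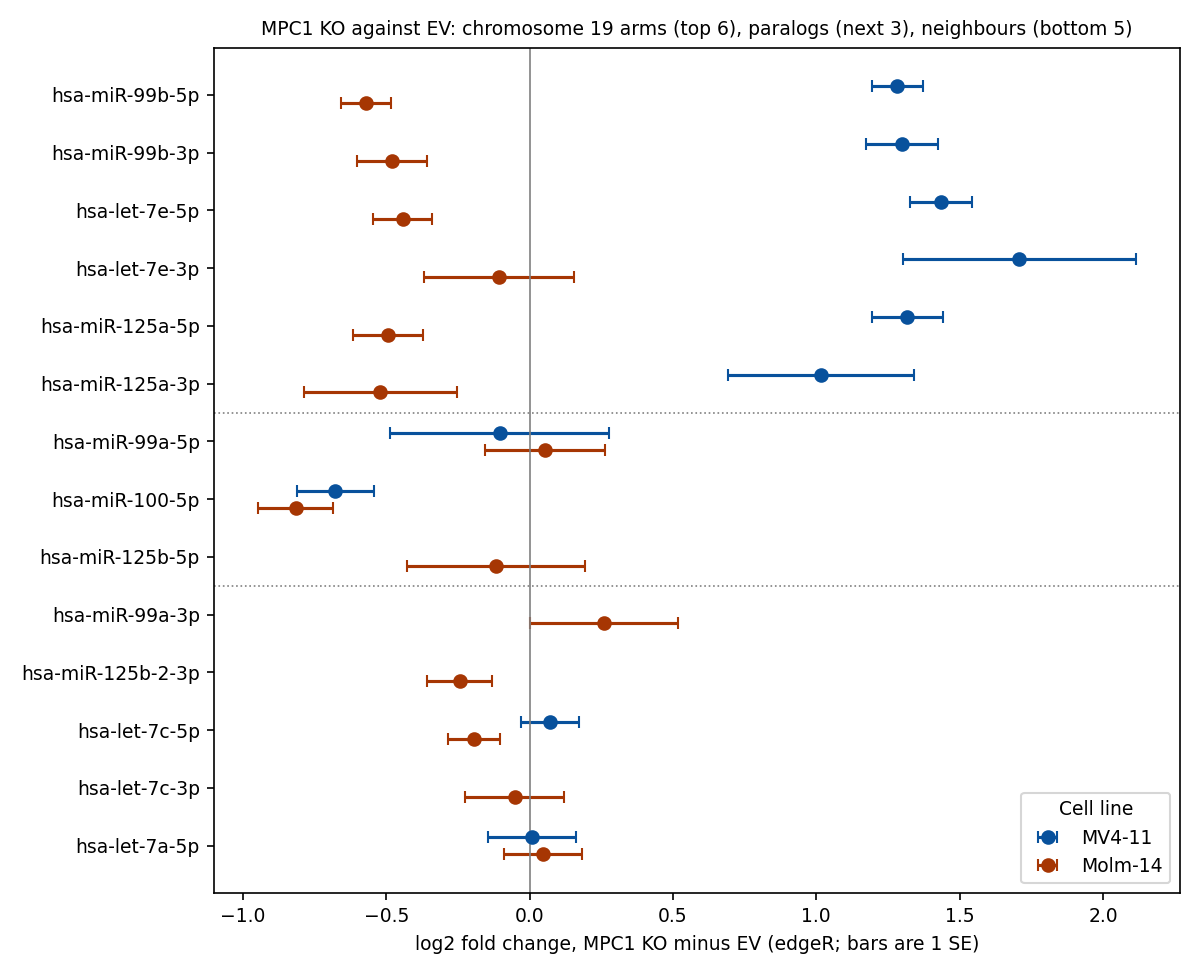
Log2 fold change of MPC1 KO against EV (horizontal axis, edgeR, bars are 1 standard error) for 14 mature miRNAs in MV4-11 (blue) and Molm-14 (red). The 6 chromosome 19 arms lie right of 0 in MV4-11 and left of 0 in Molm-14, hsa-miR-100-5p lies left of 0 in both, and no MV4-11 point is drawn where every library had at most 3 counts.

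The third question was how these changes add up over each seed family. The miR-99/100 sum, over hsa-miR-99a-5p, hsa-miR-99b-5p and hsa-miR-100-5p, was 418, 416 and 429 CPM in MV4-11 EV and 918, 937 and 936 CPM in MV4-11 MPC1 KO. The log2 ratio of the means was 1.14 (standard error 0.017), and the libraries did not overlap. In Molm-14 the sum was 8338, 11180 and 8011 CPM in EV and 8575, 10398 and 8620 CPM in MPC1 KO, a log2 ratio of 0.003 (standard error 0.18) with overlap. The family sum was therefore higher in MPC1 KO in MV4-11, while in Molm-14 the change of hsa-miR-99b-5p was smaller than the spread of the sum between libraries.

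The make-up of the family was opposite in the lines. hsa-miR-99b-5p was 87.4% ± 1.44 (SD, n = 3) of the miR-99/100 sum in MV4-11 EV and 96.3% ± 0.0390 (SD, n = 3) in MV4-11 MPC1 KO. Its share in Molm-14 was 8.66% ± 1.77 for EV (SD, n = 3) and 5.74% ± 0.797 for MPC1 KO (SD, n = 3), where hsa-miR-99a-5p made up 90.5% and 93.8%. The mean share of hsa-miR-100-5p was 10.7% in EV and 3.03% in MPC1 KO of MV4-11, and 0.826% and 0.460% in Molm-14.

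The miR-125 sum followed hsa-miR-125a-5p, which was 98.2% to 100% of it in every group mean. It was 293, 212 and 241 CPM in MV4-11 EV and 622, 619 and 620 in MPC1 KO (log2 ratio 1.32, standard error 0.14). In Molm-14 it was 706, 519 and 636 CPM in EV and 474, 377 and 478 in MPC1 KO (log2 ratio -0.49, standard error 0.17). The groups did not overlap in either line, and the MV4-11 MPC1 KO libraries lay within the range of Molm-14 EV.

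let-7e was a small part of its family. The let-7 sum over 9 members, let-7a to let-7g, let-7i and miR-98, leaves out hsa-miR-4458, which shares the seed and had at most 9 counts in a library. The sum had MV4-11 means of 132260 ± 4555 CPM for EV (SD, n = 3) and 134807 ± 4797 CPM for MPC1 KO (SD, n = 3). The Molm-14 means were 169759 ± 5515 CPM for EV (SD, n = 3) and 161253 ± 3797 CPM for MPC1 KO (SD, n = 3), and the libraries overlapped in both lines. hsa-let-7e-5p was 0.0670% of the sum in MV4-11 EV and 0.177% in MV4-11 MPC1 KO, and 0.186% and 0.144% in Molm-14. hsa-let-7g-5p and hsa-let-7i-5p, each from a single locus, made up between 34.5% and 54.2% of the sum apiece. The sum includes hsa-let-7a-5p and hsa-let-7f-5p, which have several loci and whose counts could be incomplete, so these shares could be too high.

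Between the EV controls, the family sums were higher in Molm-14 by 21.8-fold for miR-99/100, 2.5-fold for miR-125 and 1.28-fold for let-7. The libraries did not overlap for any of the 3 families, with p = 0.1 in each exact two-sided permutation test over 3 families, and adjusted p = 0.1, which is the smallest that 3 libraries against 3 allow.

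**Figure D4:**
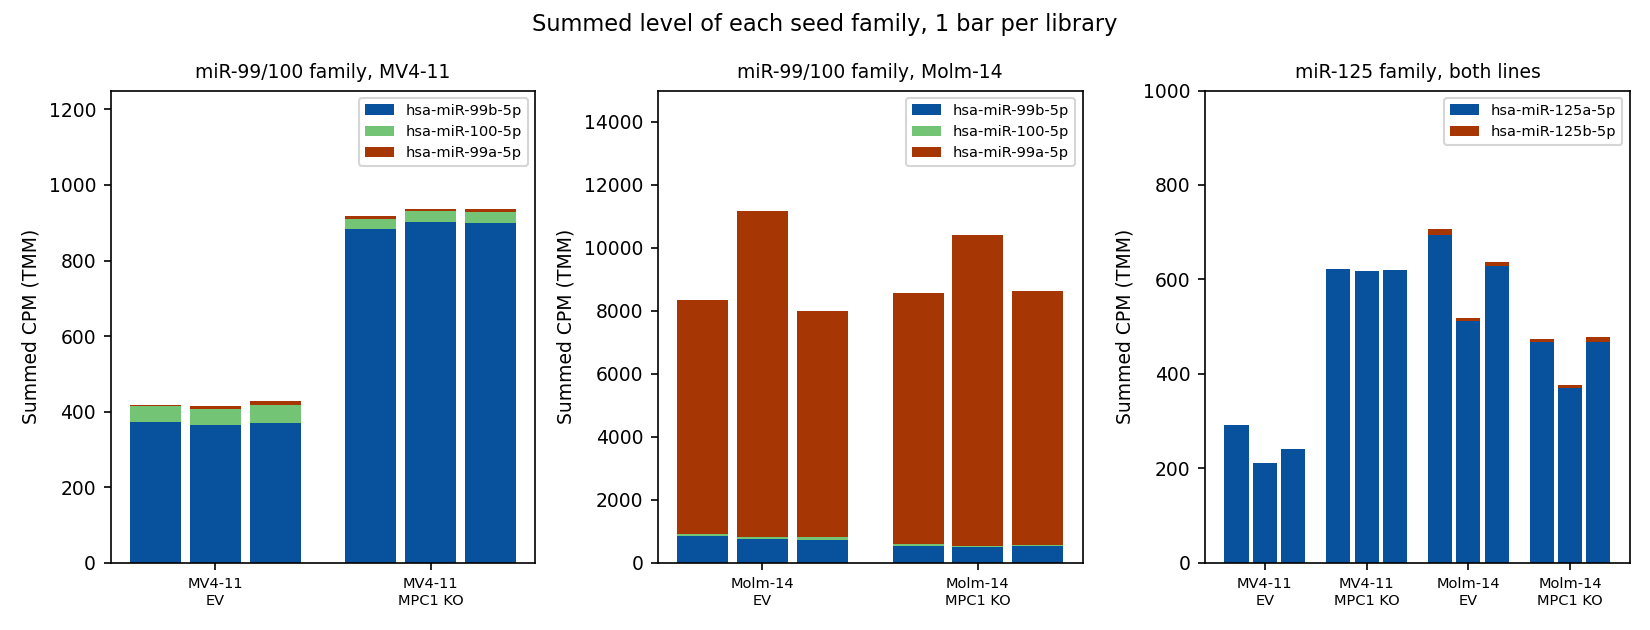
Summed CPM of the miR-99/100 family in MV4-11 (left) and Molm-14 (middle, on another scale) and of the miR-125 family in both lines (right), with 1 stacked bar per library and colours for the members. hsa-miR-99b-5p fills the MV4-11 bars, which reach 416 to 429 CPM in EV and 918 to 937 in MPC1 KO, whereas hsa-miR-99a-5p fills the Molm-14 bars.

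The arms of a hairpin allow a further look that does not rest on the MPC1 KO contrast. The 3p share of the MIR99B counts ranged from 8.28% to 9.94% among MV4-11 EV libraries and lay between 11.4% and 12.7% in the Molm-14 EV libraries. For MIRLET7E the means were 0.839% and 2.05%, and for MIR125A 0.862% and 1.41%. The exact two-sided permutation test between the EV groups gave p = 0.1 for MIR99B, p = 0.1 for MIRLET7E and p = 0.3 for MIR125A, and adjusted over 5 hairpins 0.125, 0.125 and 0.3. The 5 include MIR99A, whose 0 of 115 counts from the 3p arm in MV4-11 EV were too few to test. Its p-value still entered the adjustment. The smallest unadjusted p possible is 0.1. In MPC1 KO the mean MIR99B share was 9.09% in MV4-11 and 12.7% in Molm-14, so it stayed nearer to the EV value of its own line than to that of the other line.

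MIRLET7C gave a contrast of the same kind. Over the 3 Molm-14 EV libraries 416 of 16926 counts of this hairpin were hsa-let-7c-3p, a share of 2.46% (95% exact binomial interval 2.23 to 2.70). Over the MV4-11 EV libraries it was 0 of 946 counts, which allows a share of up to 0.317% by the floor of 3 counts and 0.389% by the exact binomial interval, and these limits cover counting error only. For MIR99A the 0 of 115 counts in MV4-11 EV allows up to 2.61% by the floor and 3.16% by the interval, above the 0.0944% seen in Molm-14 EV, so no difference was detectable at this depth. Whether the low 5p counts of let-7c in MV4-11 came from the chromosome 21 locus or from reads of similar let-7 members was not tested.

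MIR125B2 stood apart in the balance of its arms. In Molm-14 EV its 3p arm hsa-miR-125b-2-3p held 95.8% ± 1.19 (SD, n = 3) of the counts it had together with hsa-miR-125b-5p, and 95.4% ± 1.27 (SD, n = 3) in MPC1 KO. hsa-miR-125b-5p has 2 loci with the same mature sequence, whereas hsa-miR-125b-2-3p has 1. hsa-let-7a-5p (3 loci) and hsa-let-7f-5p (2 loci) had means of 254 and 865 CPM in Molm-14 EV, while the single-locus members of the family ranged from 316 (hsa-let-7e-5p) to 89538 CPM (hsa-let-7i-5p). Over the tested miRNAs that could be matched to RefSeq loci, the median was 9.04 CPM for the 23 with 2 or more loci and 10.7 CPM for the 558 with 1. Another 78 tested miRNAs were not matched and are left out. These medians are over different miRNAs and cannot show whether counts from several loci were lost. How reads that match several loci were counted is not given in the sources used here. The counts of hsa-miR-125b-5p, hsa-let-7a-5p and hsa-let-7f-5p could therefore be incomplete, which was not tested. The same holds for the miR-125 sum in Molm-14, and for the let-7 sum and the shares of its members in both lines.

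The miRNAs whose pattern over the 4 groups was most like that of hsa-miR-99b-5p were found by the root mean square difference of centred group means on the log2(CPM + 0.5) scale, over 645 other miRNAs. Outside the clusters these were hsa-miR-6502-5p (0.189), hsa-miR-212-3p (0.245) and hsa-miR-450a-1-3p (0.289), all with mean levels under 7 CPM in every group. Their Molm-14 means in EV and MPC1 KO were 2.49 and 2.39, 2.12 and 1.87, and 5.67 and 5.64 CPM. These differences were smaller than the SD of either group, so a lower level in Molm-14 MPC1 KO was not clear for them. At such levels the added 0.5 CPM also narrows differences. Within the cluster hsa-miR-125a-5p was at 0.126 and hsa-miR-99b-3p at 0.253. The other cluster arms, hsa-let-7e-5p (0.378), hsa-miR-125a-3p (0.4997) and hsa-let-7e-3p (0.849), were farther from hsa-miR-99b-5p than each outside miRNA named above. hsa-miR-125b-5p was at the floor in MV4-11, so its distance between the lines, and with it this ranking, is set by the added 0.5 CPM. By this measure the nearest to it were hsa-miR-6868-3p (0.0927), hsa-let-7b-3p (0.101) and hsa-miR-544b (0.123), and its neighbour hsa-miR-99a-3p was at 0.188. hsa-let-7b-3p had mean levels of 33.0 and 40.7 CPM in MV4-11 EV and MPC1 KO and 524 and 467 CPM in Molm-14 EV and MPC1 KO.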

How the data were processed

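The authors deposited raw counts of reads per mature miRNA for 12 small RNA libraries (NEBNext small RNA kit), with no normalization. The submitters' processing notes name STAR 2.5.2, featureCounts 1.5.1 and GRCh38 without their roles. The treatment of reads matching several miRNAs is not given in the sources used here. Libraries were grouped by the sample labels.

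From the counts, edgeR 4.0.16 (R 4.3.3) was run with filterByExpr (minimum count 10), TMM factors and a robust quasi-likelihood fit of 4 group means over 659 of 1204 miRNAs, with Benjamini-Hochberg adjustment over all 659 and a threshold of 0.05. The script was tested on simulated data. Groups whose libraries all held at most 3 counts were treated as at the floor. Single values were compared by exact permutation tests. Sequences came from RefSeq and hairpin coordinates from GENCODE 44. DESeq2 1.42.0, limma-voom (limma 3.58.1), other scalings and filters, fits per line, a replicate block and leaving out each library were tried as alternatives. The members, the lists and the rule for named genes (9 members, 8 neighbours and the 3 miRNAs most like each of hsa-miR-99b-5p and hsa-miR-125b-5p) were chosen with earlier results of these data known. The MPC1 mRNA, and hence the deletion, was not analysed here. Every pair of replicates differed by more than sampling noise.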

Additional observations from a re-analysis of the deposited data

Results flagged for a closer look

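The MPC1 KO effects of the chromosome 19 arms pointed in opposite directions in the lines, though not clearly for hsa-let-7e-3p. Its log2 fold change in Molm-14 was -0.11 (95% interval -0.65 to 0.44), and the libraries overlapped. Subtracting the MV4-11 log2 fold change from the Molm-14 one left -1.85 (hsa-miR-99b-5p) and -1.78 (hsa-miR-99b-3p) for MIR99B. The arms of MIRLET7E were at -1.88 (5p) and -1.81 (3p), and those of MIR125A at -1.81 (5p) and -1.54 (3p). For the summed miR-125 family it was -1.81, a difference that was not tested. The members were selected on these values, so they are given as a description.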

How the results depend on the processing

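The count of members past the threshold kept within 1.5 times its value under every scaling, filter, tool and replicate block tried, and leaving out 1 library gave 3 to 5 in Molm-14 MPC1 KO. These counts do not cover the difference of the effects. With a mean of at least 100 counts required, 3 neighbours were left to call in the EV contrast, since fewer were tested. Under upper-quartile factors the log2 ratio of the miR-99/100 sum in MV4-11 was 1.03, that of the let-7 sum 0.18 between EV controls, -0.084 in MV4-11 and -0.0020 in Molm-14. The miR-99/100 ratio in MV4-11 was 1.21 with total counts and 1.18 with the family fitted as 1 row. Values near 0 changed sign. With upper-quartile factors hsa-let-7c-5p (-0.041) and hsa-let-7a-5p (-0.10) in MV4-11, hsa-let-7c-3p in Molm-14 (0.019) and hsa-miR-100-5p for the difference (0.047) did so. hsa-let-7a-5p in MV4-11 was -0.029 with limma-voom and -0.022 fitted on its own line, and its difference was -0.0099 with total counts. The cause was not tested. Leaving out 1 library, the log2 fold changes ranged from -0.53 to 0.19 (MV4-11), -0.038 to 0.27 (Molm-14) and -0.12 to 0.60 (difference) for hsa-miR-99a-5p, from -0.13 to 0.18, -0.016 to 0.11 and -0.13 to 0.19 for hsa-let-7a-5p, and in Molm-14 from -0.24 to 0.028 for hsa-let-7e-3p, -0.36 to 0.18 for hsa-miR-125b-5p and -0.087 to 0.035 for hsa-let-7c-3p.

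Whether replicate numbers pair the libraries is not given in the sources used here. Deviations of same-numbered libraries correlated between -0.13 and 0.12, and those of differently numbered ones between -0.14 and 0.20. No pairing was seen in these values, but with 3 libraries a group they cannot exclude it. With the replicate block the count of members was 6 in MV4-11 and 5 in Molm-14, and of neighbours 0 in both and for the difference. For the difference of the effects, the block took hsa-miR-125a-3p over the threshold (log2 -1.58), as did upper-quartile factors (-1.35). The members were selected on these effects, so nothing is read from that call. A block shared by the lines, added after seeing the data, gave 9 members and 5 neighbours in the EV contrast. Depth limits hsa-let-7e-3p, hsa-miR-125a-3p and hsa-miR-125b-5p, which had at most 57 counts in a library.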
